A study of Homo sapiens with 9 samples.

Results

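The genes of the proteasome, the protease complex that breaks down ubiquitin-tagged proteins, were followed across 9 RNA sequencing libraries of MOLT4 cells, a human cell line from a T-cell acute lymphoblastic leukemia. Members were the rows of the expression table whose symbol is PSM, a letter from A to G and a number, and 48 of 23621 gene rows matched. They comprise the subunits of the core and of the regulatory particle, the immunoproteasome subunits, the alternative activators, an inhibitor and the dedicated assembly chaperones. Of these, 46 had a mean of at least 1 FPKM (fragments per kilobase of transcript, scaled to library size) over the 9 libraries and were tested among 12301 such genes. The exceptions were PSMA8, a testis-type outer-ring subunit, and PSMB11, the catalytic subunit of the thymus-type proteasome. PSMA8 lay between 0.0993 and 0.156 FPKM and PSMB11 between 0.0988 and 0.137 FPKM in all libraries, near the 0.1 FPKM at which the table lists undetected genes.

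The cells had been treated for 6 h, and there were 3 libraries titled MI-389, 3 titled Sunitinib and 3 of vehicle, 0.1% DMSO. Sunitinib inhibits several receptor tyrosine kinases, MI-389 is known here by its code name, and the title of the series names the translation termination factor GSPT1 as an off-target of phthalimide degraders. The source field of the treated libraries contradicts their titles: it gives sunitinib, at 1 µM, for the libraries titled MI-389, and MI-389, at 0.1 µM, for the libraries titled Sunitinib. Titles, barcode list and column names give the same compound for each library and were followed here. Should the source field hold the true names, the compounds change places in all that follows. In either reading the doses of the compounds differed, so the treated groups were not compared at a matched dose. The labels do not say whether replicates came from separate cultures, so the p-values measure the spread between these libraries, which may be technical.

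All 8 T-lineage markers examined had a mean of at least 1 FPKM (20.7 to 837 FPKM), whereas 0 of 3 myeloid markers and 0 of 4 epithelial and fibroblast markers did. Of 3 B-cell markers only CD79A, at a mean of 8.07 FPKM, did, and its part in the results was not tested. Absolute depth is unknown from FPKM values. The steps between low values put the depth of the MI-389 libraries at 1.39 times and that of the Sunitinib libraries at 1.34 times the depth of the DMSO libraries. DMSO replicate 1 stood low for the proteasome genes: its median log2(FPKM + 1) over the tested members was 7.82, against 7.99 and 8.02 in the other DMSO libraries. The medians were 7.85, 7.79 and 7.81 in the MI-389 libraries and 7.83, 7.81 and 7.78 in the Sunitinib libraries.

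The proteolytic core, or 20S particle, is a barrel of stacked rings in which PSMA subunits form the outer, gating rings and PSMB subunits the inner rings that hold the catalytic sites. The 19S regulatory particle caps the barrel: its base carries the PSMC ring of ATPases that unfold substrates, and its lid carries PSMD14, the enzyme that removes ubiquitin chains. In lymphoid cells the inducible catalytic subunits PSMB8, PSMB9 and PSMB10 can replace PSMB5, PSMB6 and PSMB7 to form the immunoproteasome. Many subunit genes are known to be switched on together by the transcription factor NFE2L1 when proteasome activity is short.

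Proteasome transcripts were abundant in these cells, and most core genes stood above the cap members, though the ranges overlapped. SHFM1, a small lid subunit that the PSM rule does not name, averaged 1211 FPKM in DMSO libraries and is not among these members. In DMSO libraries the outer-ring subunits PSMA6 and PSMA7 were highest of the members, at 1174 ± 92.3 and 1172 ± 110.3 FPKM (mean ± SD, n = 3), a difference smaller than their spread. The activator genes PSME2 and PSME1 came next, at 1018 ± 106 and 953 ± 73.7 FPKM, and also did not differ beyond their spread. Within the outer ring, whose subunits are present in equal number in the assembled barrel, the mean levels in DMSO libraries spanned 8.92-fold, with PSMA5 lowest at 132 ± 5.98 FPKM. Among the constitutive inner-ring subunits they spanned 5.48-fold, between PSMB4 at 790.3 ± 77.4 FPKM and PSMB2 at 144 ± 12.9 FPKM. The 9 base subunits ran from 130.0 FPKM (PSMD1) to 418 FPKM (PSMC5) and the 8 lid subunits from 103 FPKM (PSMD11) to 295 FPKM (PSMD3). Assembly chaperones were lower, from 38.1 FPKM (PSMD9) to 263 FPKM (PSMG1), and PSME4, the gene of the PA200 activator, was the lowest tested member at 29.9 ± 2.81 FPKM.

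**Figure D1:**
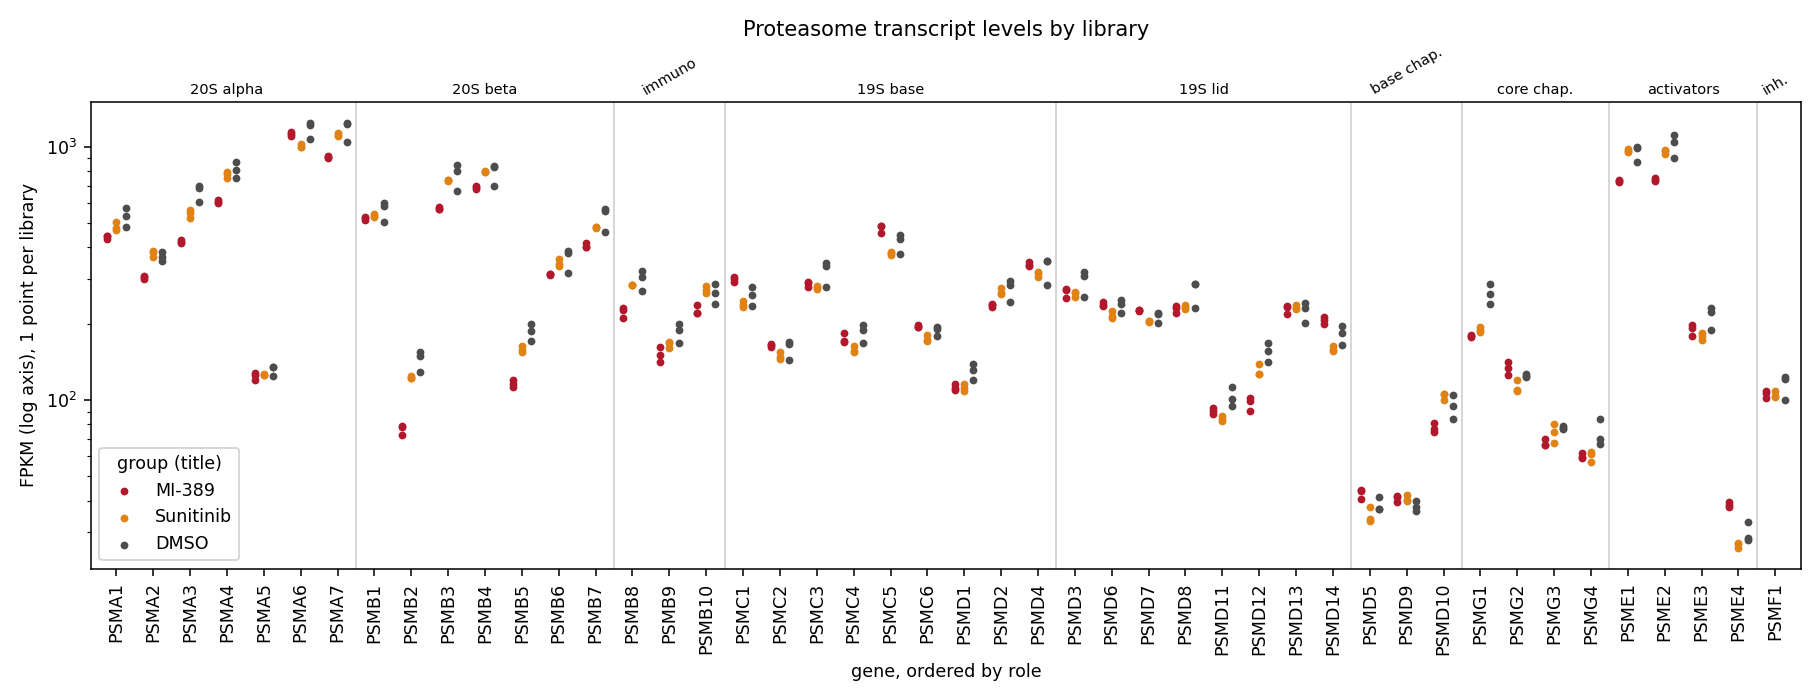
FPKM on a log axis of the 46 tested proteasome genes, 1 point per library (MI-389 red, Sunitinib orange, DMSO grey), with genes along the horizontal axis in blocks by role. PSMA6 and PSMA7 stand highest and PSME4 lowest, and the red points of PSMB2, PSMB5 and PSMD12 lie clearly below the grey ones.

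The comparison of MI-389 with DMSO asked how these genes stood after 6 h with the compound. Most transcripts of the core were lower in the MI-389 libraries, while the median of the cap was near zero. Of the 46 tested members, 25 were lower and 4 higher at an adjusted p below 0.05 (limma on log2(FPKM + 1), Benjamini-Hochberg adjustment over all tested genes), against 28.3% of all 12301 tested genes that were lower and 28.5% that were higher. The median log2 difference was −0.19 over the members and −0.0021 over all tested genes. Non-overlapping libraries gave a like count, with 23 members lower and 6 higher in all 3 MI-389 libraries than in any DMSO library, against 29.7% and 30.5% of all tested genes. In bulk libraries, fewer cells that carry a transcript and less of that transcript per cell cannot be told apart.

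The direction of the members as a whole depended on how libraries were put on a common scale. Rescaling to 16 spike-in RNAs gave 24 members lower and 4 higher. The spike-in medians of the deposited libraries already lay close together (log2 deviations of −0.0353 to 0.0559), so this rescaling could change little. Median centring gave 33 lower and 3 higher. Quantile normalization, which gives every library the same distribution, returned 18 lower and 14 higher, and cyclic loess, which removes trends with abundance, 14 lower and 18 higher. The median over the members was then 0.0030 and 0.043. The background rose as well. Of all 12301 tested genes, 6979 were called in either direction as deposited, 8178 under median centring, 8117 under quantile normalization and 8089 under cyclic loess. The median difference of the core stood below that of the cap under each of these scalings. Median centring shifts all genes of a library by the same amount, and spike-in rescaling nearly so. Only quantile normalization and cyclic loess could therefore readily have changed this order, and under both it held.

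Within the 20S core, 11 of the 14 constitutive subunits tested were lower in the MI-389 libraries, none was higher and no log2 difference was above zero. The median was −0.31. Of all tested genes, 28.3% were lower and 28.5% higher. By ring, 5 of 7 outer-ring subunits and 6 of 7 inner-ring subunits were lower. PSMA5, PSMA6 and PSMB1 did not pass the test. Under quantile normalization 7 of the 14 were lower and 3 higher (median −0.073), and under cyclic loess 6 were lower and 4 higher (median −0.0013). Of all tested genes, 8117 and 8089 were called in either direction under these scalings, and their shares by direction are not given here.

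PSMB2, a non-catalytic inner-ring subunit, had 78.5, 72.8 and 79.1 FPKM in the MI-389 libraries, 125, 122 and 122 FPKM in the Sunitinib libraries, and 129, 149 and 154 FPKM in the DMSO libraries. The groups did not overlap, and MI-389 stood lowest. The mean was 0.533 times that of DMSO (log2 difference −0.90, 95% interval −1.05 to −0.74, adjusted p = 6.03e-06). PSMB5, which carries the chymotrypsin-like site that bortezomib blocks, had 116, 112 and 120.0 FPKM in the MI-389 libraries, 155, 163 and 158 FPKM in the Sunitinib libraries, and 171, 199 and 186 FPKM in the DMSO libraries. All 3 MI-389 libraries were below every other library (log2 difference −0.67, 95% interval −0.81 to −0.53, adjusted p = 1.66e-05). Both genes kept their call in every alternative run, with log2 differences of −0.97 to −0.77 for PSMB2 and −0.75 to −0.49 for PSMB5.

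PSMA3, an outer-ring subunit, had 419, 415 and 428 FPKM in the MI-389 libraries, 563, 545 and 524 FPKM in the Sunitinib libraries, and 602, 698 and 688 FPKM in the DMSO libraries, again with no overlap between the groups (log2 difference −0.65, 95% interval −0.80 to −0.51, adjusted p = 2.85e-05). Cyclic loess shrank its difference to −0.345, still past the test. The outer-ring subunit PSMA4 had 603, 600.2 and 618 FPKM in the MI-389 libraries and 750.1, 811 and 868 FPKM in the DMSO libraries (log2 difference −0.41, 95% interval −0.55 to −0.28, adjusted p = 0.000337). PSMA7 had 922, 898 and 906 FPKM in the MI-389 libraries and 1045, 1233 and 1239 FPKM in the DMSO libraries (log2 difference −0.36, 95% interval −0.52 to −0.21, adjusted p = 0.00168), and its call was lost under cyclic loess (−0.019, adjusted p = 0.337). In the inner ring, PSMB3 had 566, 568 and 575 FPKM in the MI-389 libraries and 671, 801 and 843 FPKM in the DMSO libraries (log2 difference −0.43, 95% interval −0.61 to −0.26, adjusted p = 0.00116). None of these 3 genes had MI-389 and DMSO libraries that overlapped. Cyclic loess reduced the difference of PSMA4 from −0.41 to −0.090, which only just passed (adjusted p = 0.0479). It reduced that of PSMB3 from −0.43 to −0.11 (adjusted p = 0.0027).

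PSMA6, which stood beside PSMA7 at the top of the members in DMSO libraries, did not follow PSMA7. PSMA6 had 1126, 1100.2 and 1138 FPKM in the MI-389 libraries, 1021, 1001 and 998 FPKM in the Sunitinib libraries, and 1068, 1214 and 1239 FPKM in the DMSO libraries, so that MI-389 lay within the range of DMSO. PSMA5, the least abundant outer-ring subunit, likewise overlapped, with 128, 119.9 and 126 FPKM in the MI-389 libraries and 125, 135 and 135 FPKM in the DMSO libraries.

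The 19S cap gave a mixed picture. Of the 17 subunits named by the PSM rule, 5 were lower and 3 higher in MI-389 libraries, with a median log2 difference of 0.020. Of all tested genes, 28.3% were lower and 28.5% higher. The share of cap subunits that were lower was thus near that of all genes, and the share higher was below it. The ring of 6 ATPases had 2 genes higher and none lower. The other base subunits, the scaffold proteins PSMD1 and PSMD2 and the ubiquitin receptor PSMD4, had 2 lower. Quantile normalization gave 9 of 17 cap subunits higher and 3 lower, cyclic loess 12 higher and 3 lower, and median centring 2 higher and 8 lower. Of all 12301 tested genes, 8117, 8089 and 8178 were called in either direction under these scalings, in the same order. Their shares by direction are not given here, so these cap counts were not set against a background.

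PSMD12, a scaffold subunit of the lid, had the largest fall among the cap members. It had 101, 90.3 and 98.9 FPKM in the MI-389 libraries, 138, 126 and 126 FPKM in the Sunitinib libraries, and 141, 156 and 168 FPKM in the DMSO libraries. Its MI-389 libraries lay below all others (log2 difference −0.67, 95% interval −0.84 to −0.50, adjusted p = 5.82e-05), and its call held in every alternative run. The 4 members that rose were PSMC1, PSMC5, PSMD14 and PSME4; they lay outside the rule for named genes in this comparison and were chosen after their values were seen. PSMC1, an ATPase of the base, had 305, 291 and 301 FPKM in the MI-389 libraries, 245, 232 and 237 FPKM in the Sunitinib libraries, and 234, 259.6 and 279 FPKM in the DMSO libraries (log2 difference 0.22, 95% interval 0.070 to 0.36, adjusted p = 0.0178). PSMC5, another ATPase, had 484, 454 and 486 FPKM in the MI-389 libraries, 374, 385 and 381 FPKM in the Sunitinib libraries, and 377, 431 and 448 FPKM in the DMSO libraries (log2 difference 0.19, 95% interval 0.032 to 0.34, adjusted p = 0.0411). The MI-389 libraries of both genes lay above all others.

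PSMD14, the deubiquitinase of the lid, had 213, 199.8 and 207 FPKM in the MI-389 libraries, 163, 156 and 158 FPKM in the Sunitinib libraries, and 164, 183 and 196 FPKM in the DMSO libraries (log2 difference 0.19, 95% interval 0.045 to 0.34, adjusted p = 0.0303). Here too all MI-389 libraries stood above the rest. The rises of these 3 cap genes were small and their size rested on the scaling. Cyclic loess gave log2 differences of 0.473 for PSMC1, 0.48 for PSMC5 and 0.399 for PSMD14, and quantile normalization 0.418, 0.432 and 0.353, all past the test, whereas median centring gave 0.139 for PSMC1 and 0.114 for PSMD14, both past it, and 0.107 for PSMC5 (adjusted p = 0.0556). Of 21 alternatives, the call was lost in 2 for PSMC1, 11 for PSMC5 and 6 for PSMD14. Without MI-389 replicate 1 the adjusted p was 0.0596 for PSMC1, 0.114 for PSMC5 and 0.0996 for PSMD14, and without MI-389 replicate 3 it was 0.0537, 0.12 and 0.0763 in the same order. Without DMSO replicate 2 it was 0.0581 for PSMC5 and 0.0615 for PSMD14. PSMC5 also lost its call without any 1 Sunitinib library (0.0608 to 0.0625), and without DMSO replicate 1 the differences of PSMC5 and PSMD14 shrank to 0.111 and 0.125 with the call kept. Both lost it without a filter, with only the 6 libraries compared and with the replicate block (0.0643 for PSMC5 and 0.0593 for PSMD14).

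Exons of PSMC5 overlap those of FTSJ3 (mean 109 FPKM) on the opposite strand, exons of PSMC1 overlap those of NRDE2 (14.4 FPKM), and PSMC1 has 13 named pseudogenes. Strand is not marked by the library kit. Reads from the overlapping stretches, and reads that match a copy equally well, cannot be told apart. The length of these stretches was not measured, and the levels of these genes are uncertain to that extent. In all, 21 of 48 members have a named pseudogene, and 10 share exon sequence with another gene that has a row in the table.

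**Figure D2:**
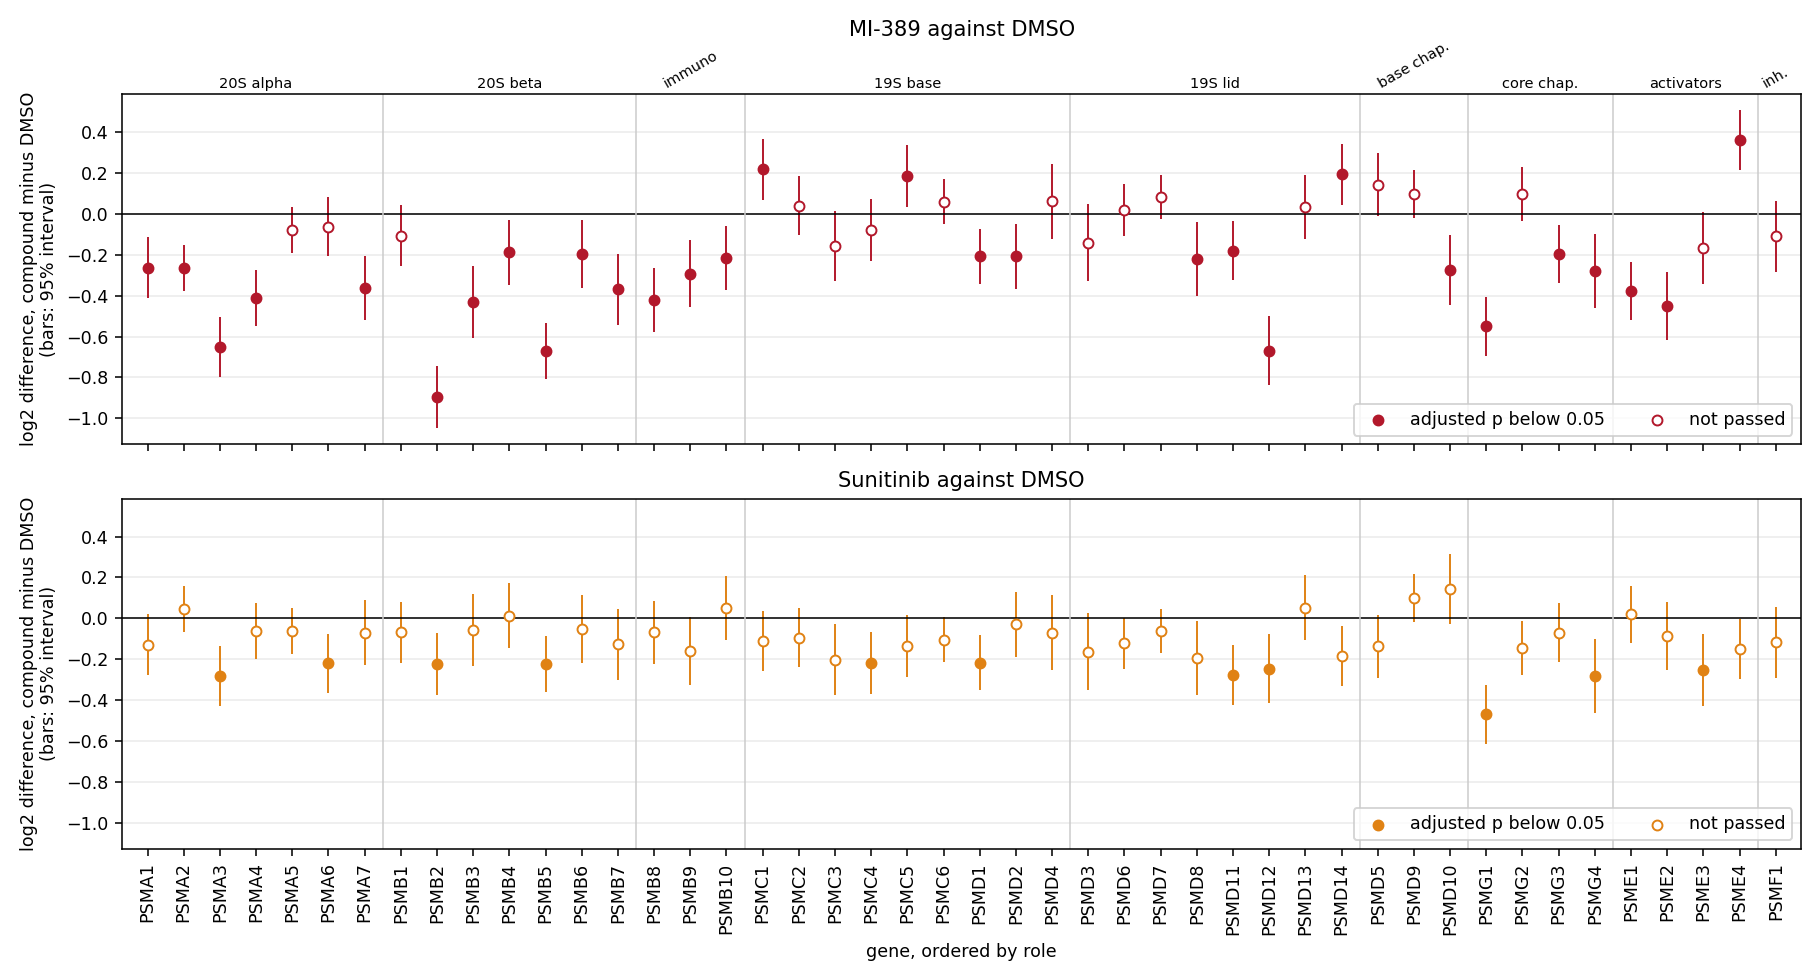
Log2 difference, compound minus DMSO, of each tested proteasome gene (vertical axis, log2(FPKM + 1) scale) for MI-389 in the upper panel and Sunitinib in the lower, with 95% intervals from limma; filled points passed an adjusted p below 0.05. All core points of the upper panel lie below zero, down to −0.90 for PSMB2, whereas those of the base scatter on both sides.

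The promoters of the 2 core genes that fell furthest, PSMB2 and PSMB5, and of 2 of the 4 members that rose, PSMD14 and PSME4, are shown because these genes moved in opposite directions within a set known to be regulated together. Each is the 250 bases upstream of the RefSeq start of the gene on its own strand, 5′ to 3′, in GRCh38.p14, a build other than that of the expression table (hg19). PSMB2 is on the minus strand at chr1:35641527-35641776, PSMB5 on the minus strand at chr14:23035221-23035470, PSMD14 on the plus strand at chr2:161308175-161308424 and PSME4 on the minus strand at chr2:53970994-53971243. Capitals mark matches, on either strand, to 3 motifs: the antioxidant response element type core bound by NFE2L1 and NFE2L2 (TGACNNNGC or TGAGNNNGC), the CCAAT box bound by NF-Y, and the ETS core CGGAAG.
PSMB2: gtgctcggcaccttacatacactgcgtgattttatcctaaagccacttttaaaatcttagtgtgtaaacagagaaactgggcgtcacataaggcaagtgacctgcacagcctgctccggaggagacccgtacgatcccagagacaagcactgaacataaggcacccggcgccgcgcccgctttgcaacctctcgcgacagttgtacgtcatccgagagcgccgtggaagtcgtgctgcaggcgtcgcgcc
PSMB5: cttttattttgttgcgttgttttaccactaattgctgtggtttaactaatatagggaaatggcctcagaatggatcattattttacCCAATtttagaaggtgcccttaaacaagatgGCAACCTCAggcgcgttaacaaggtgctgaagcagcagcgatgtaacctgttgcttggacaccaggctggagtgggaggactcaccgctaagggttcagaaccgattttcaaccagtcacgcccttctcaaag
PSMD14: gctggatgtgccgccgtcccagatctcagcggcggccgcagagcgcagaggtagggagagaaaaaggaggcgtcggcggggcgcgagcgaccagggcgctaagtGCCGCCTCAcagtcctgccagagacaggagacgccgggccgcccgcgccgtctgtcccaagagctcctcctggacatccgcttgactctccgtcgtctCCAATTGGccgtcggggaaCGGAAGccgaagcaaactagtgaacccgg
PSME4: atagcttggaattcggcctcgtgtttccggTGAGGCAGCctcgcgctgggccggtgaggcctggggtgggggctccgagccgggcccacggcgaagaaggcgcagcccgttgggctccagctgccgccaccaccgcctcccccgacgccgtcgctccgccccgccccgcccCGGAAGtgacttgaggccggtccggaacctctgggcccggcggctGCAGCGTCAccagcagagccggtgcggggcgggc

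PSMB5 held an antioxidant response element type match 133 to 125 bases upstream of its start and a CCAAT match 164 to 160 bases upstream. PSMD14 held an antioxidant response element type match 146 to 138 bases upstream, an ETS match 29 to 24 bases upstream, and a CCAAT match on each strand, which overlap (48 to 44 and 45 to 41 bases upstream). In PSME4 there were 2 antioxidant response element type matches, 220 to 212 and 34 to 26 bases upstream, and an ETS match 79 to 74 bases upstream. The PSMB2 window held none of these letters. Over the 42 members with a RefSeq promoter entry, 17 (40.5%) held the antioxidant response element type core, against 24.2% of all 27305 RefSeq promoter entries. The CCAAT box was in 18 (42.9%, against 33.0%) and the ETS core in 20 (47.6%, against 16.8%). The full set of entries includes genes not tested here and was not matched to the members in expression or base composition. By direction, the antioxidant response element type core was in 9 of the 21 members with an entry that were lower in MI-389 libraries, in 2 of the 4 that were higher and in 6 of the 15 that did not pass. A match is a description of the letters and not a binding site.

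Summed over their genes, the particles differed in proportion in every MI-389 library. The 14 constitutive core genes summed to 6662, 6531 and 6668 FPKM in the MI-389 libraries, 7672, 7632 and 7502 FPKM in the Sunitinib libraries, and 7378, 8523 and 8662 FPKM in the DMSO libraries. The 17 cap genes summed to 3941, 3774 and 3892 FPKM in the MI-389 libraries, 3617, 3617 and 3541 FPKM in the Sunitinib libraries, and 3536, 4085 and 4196 FPKM in the DMSO libraries. Core sums in MI-389 lay below all other libraries, while sums of these 17 cap genes in MI-389 lay within the range of DMSO. The cap sums leave out the lid subunit SHFM1, which the PSM rule does not name. It had 635, 638 and 664 FPKM in the MI-389 libraries and 1064, 1289 and 1279 FPKM in the DMSO libraries. In the Sunitinib libraries it had 1135, 1183 and 1103 FPKM. With SHFM1 added, each MI-389 cap sum would lie below those of DMSO, and the ratios below would differ less between groups.

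The ratio of the cap sum to the core sum was 0.592, 0.578 and 0.584 in the MI-389 libraries, 0.471, 0.474 and 0.472 in the Sunitinib libraries, and 0.479, 0.479 and 0.484 in the DMSO libraries. The ratio of each MI-389 library exceeded that of every other library, and DMSO replicate 1, low in both sums, had the same ratio as its group. The log2 ratio was 0.28 higher in MI-389 than in DMSO libraries, 0.23 under quantile normalization and 0.21 under cyclic loess; without any 1 library it was 0.27 to 0.29. This ratio rests on FPKM summed over several genes, leaves out SHFM1, was chosen after the data were seen, and was not tested.

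**Figure D3:**
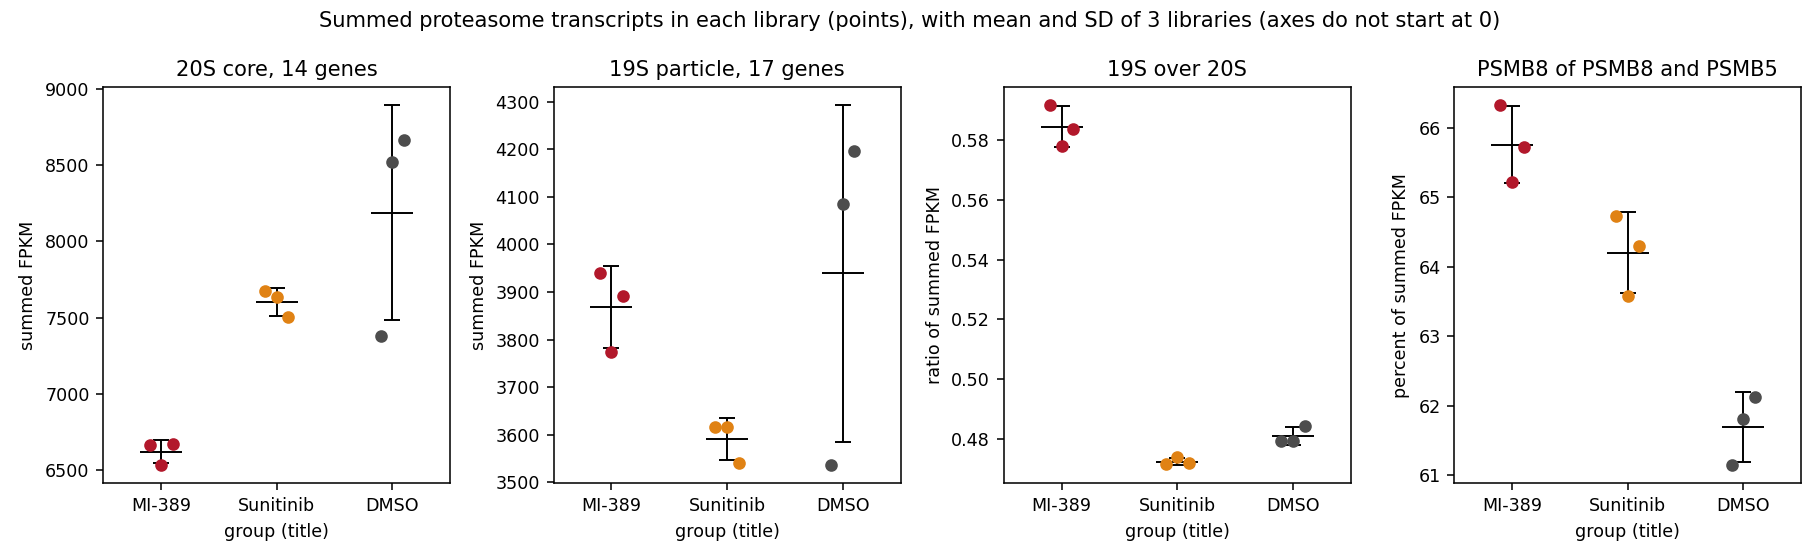
Summed FPKM of the 14 constitutive 20S genes and of the 17 19S genes, their ratio, and the percent of PSMB8 in the sum of PSMB8 and PSMB5, with 1 point per library and the mean and SD of 3 libraries as bars, for MI-389, Sunitinib and DMSO from left to right; axes do not start at 0. The ratio is 0.578 to 0.592 in MI-389 libraries, above the 0.471 to 0.484 of all other libraries. The 19S sum leaves out the lid subunit SHFM1.

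The catalytic subunits of both proteasome types were lower in MI-389 than in DMSO libraries. PSMB8, the inducible counterpart of PSMB5, had 227, 210.1 and 230.1 FPKM in the MI-389 libraries, 284, 285 and 284 FPKM in the Sunitinib libraries, and 269, 321 and 306 FPKM in the DMSO libraries (log2 difference −0.42, 95% interval −0.58 to −0.27, adjusted p = 0.000627). Its MI-389 libraries did not overlap with the others. PSMB9, encoded beside PSMB8 in the major histocompatibility complex, had 162, 149.9 and 141 FPKM in the MI-389 libraries and 168, 189 and 199 FPKM in the DMSO libraries (log2 difference −0.29, 95% interval −0.46 to −0.13, adjusted p = 0.007). The third inducible subunit, PSMB10, had 238, 219 and 221 FPKM in the MI-389 libraries and 239, 264 and 286 FPKM in the DMSO libraries (log2 difference −0.22, 95% interval −0.37 to −0.059, adjusted p = 0.0242), with MI-389 replicate 1 just under the lowest DMSO library.

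Among the constitutive sites, PSMB7, which carries the trypsin-like activity, averaged 407 ± 9.72 FPKM in MI-389 and 528 ± 60.00 FPKM in DMSO libraries (SD, n = 3 each; log2 difference −0.37, 95% interval −0.54 to −0.20, adjusted p = 0.00269). PSMB6, which carries the caspase-like activity, averaged 314 ± 1.15 FPKM in MI-389 and 361 ± 37.97 FPKM in DMSO libraries (log2 difference −0.20, 95% interval −0.36 to −0.031, adjusted p = 0.0445). Cyclic loess reduced the differences of PSMB8 and PSMB7 to −0.16 and −0.068, still past the test. The calls of PSMB6, PSMB9 and PSMB10 did not hold throughout. Under cyclic loess PSMB9 no longer passed (−0.099, adjusted p = 0.0658), PSMB10 was near zero (0.036, adjusted p = 0.349) and PSMB6 was higher (0.084, adjusted p = 0.0181). Of 21 alternatives, 14 ended or turned round the call of PSMB6, 9 that of PSMB10 and 1 that of PSMB9. PSMB6 lost it without any 1 library other than DMSO replicate 1 (adjusted p = 0.0611 to 0.161), and also without a filter, without a variance trend, with only the 6 libraries compared and with the replicate block (0.0608). PSMB10 lost it without DMSO replicate 2 (0.065) or 3 (0.0651) or MI-389 replicate 2 (0.0785) or 3 (0.0799), and also without a filter, with only the 6 libraries compared and with the replicate block (0.0544). Under quantile normalization PSMB6 was at −0.00843 and PSMB10 at 0.00193.

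The 3 inducible subunits made up 41.7% ± 0.69 of the summed FPKM of the 6 catalytic subunits in MI-389 libraries, 42.2% ± 0.24 in Sunitinib libraries and 41.1% ± 0.66 in DMSO libraries (SD, n = 3 each). A two-sided exact permutation test gave p = 0.4 for MI-389 against DMSO and p = 0.1 for Sunitinib against DMSO, where 0.1 is the smallest p that 3 libraries a group allow. In the chymotrypsin-like pair alone, PSMB8 was 66.3%, 65.2% and 65.7% of the sum of PSMB8 and PSMB5 in the MI-389 libraries, 64.7%, 63.6% and 64.3% in the Sunitinib libraries, and 61.1%, 61.8% and 62.1% in the DMSO libraries. The 3 groups did not overlap in this measure (exact permutation p = 0.1 for each pair of groups, the smallest possible).

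The activators moved in both directions. PSME1, an interferon-inducible subunit of the PA28 ring, had 739, 729 and 726 FPKM in the MI-389 libraries, 959.8, 980.1 and 953 FPKM in the Sunitinib libraries, and 868, 1001 and 989.9 FPKM in the DMSO libraries (log2 difference −0.38, 95% interval −0.52 to −0.24, adjusted p = 0.000671). Its partner PSME2 had 751, 732 and 741 FPKM in the MI-389 libraries, 961, 973 and 935 FPKM in the Sunitinib libraries, and 902, 1109 and 1044 FPKM in the DMSO libraries (log2 difference −0.45, 95% interval −0.62 to −0.29, adjusted p = 0.00062). In both, MI-389 lay below every other library; the fall of PSME1 was no longer past the test under cyclic loess (−0.044, adjusted p = 0.145), and that of PSME2 shrank to −0.12. PSME2 has 6 named pseudogenes, and exons of both genes overlap an opposite-strand gene (EMC9 at 47.1 FPKM for PSME1 and RNF31 at 30.7 FPKM for PSME2).

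PSME3, which forms the nuclear activator ring, overlapped between MI-389 (198, 178 and 193 FPKM) and DMSO (188, 223 and 229.9 FPKM) and did not pass. PSME4, whose product PA200 is a single-chain activator of the nucleus, had 38.4, 37.9 and 39.5 FPKM in the MI-389 libraries, 27.4, 26.9 and 26.1 FPKM in the Sunitinib libraries, and 28.1, 28.4 and 33.1 FPKM in the DMSO libraries. It stood higher in each MI-389 library than in any other library, 1.29 times the DMSO mean (log2 difference 0.36, 95% interval 0.22 to 0.51, adjusted p = 0.0011), and passed in every alternative run (0.27 to 0.44). Its exons overlap those of ACYP2 (20.6 FPKM) on the opposite strand. PSMF1, the gene of the PI31 inhibitor, averaged 106 ± 3.36 FPKM in MI-389 and 115 ± 12.99 FPKM in DMSO libraries and did not pass.

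Of the chaperones that build the core, PSMG1, PSMG3 and PSMG4 were lower and PSMG2 did not pass. PSMG1, which pairs with PSMG2 to assemble the outer ring, had 178, 181 and 178 FPKM in the MI-389 libraries, 195, 188 and 186 FPKM in the Sunitinib libraries, and 239.8, 263 and 287 FPKM in the DMSO libraries (log2 difference −0.55, 95% interval −0.69 to −0.41, adjusted p = 7.72e-05). Both treated groups lay below DMSO, with no overlap. PSMG2 had 126, 141 and 133 FPKM in the MI-389 libraries, 119.9, 109.8 and 108 FPKM in the Sunitinib libraries, and 123, 124 and 126 FPKM in the DMSO libraries, and its MI-389 and DMSO libraries overlapped. Cyclic loess reduced the PSMG1 difference to −0.325, still called. Among the chaperones that build the base, PSMD10 (gankyrin) was lower, with 81.2, 76.5 and 74.7 FPKM in the MI-389 libraries and 83.8, 94.4 and 104 FPKM in the DMSO libraries, while PSMD5 and PSMD9 did not pass.

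**Figure D4:**
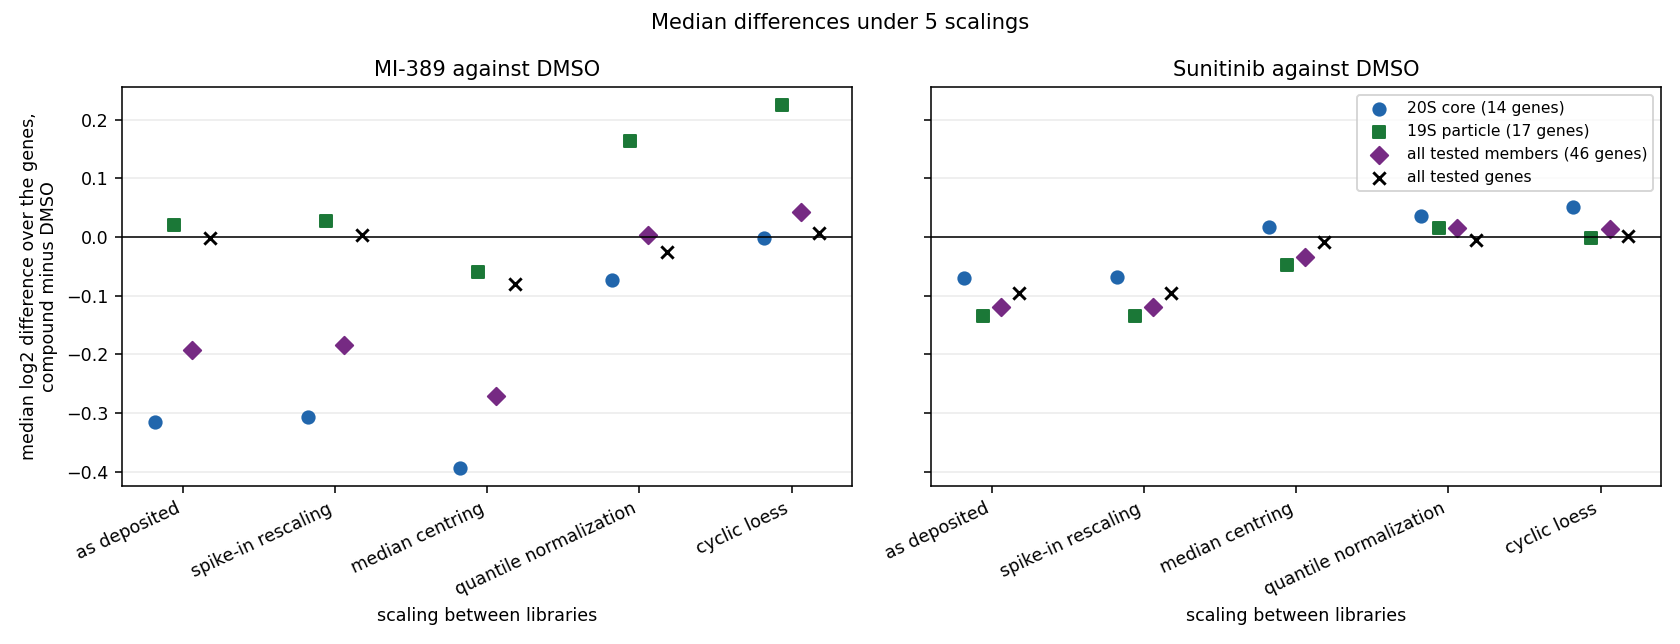
Median log2 difference, compound minus DMSO, over the 14 core genes (circles), 17 cap genes (squares), all 46 tested members (diamonds) and all tested genes (crosses) under 5 scalings of the libraries. In the MI-389 panel the core lies below the cap under each scaling, at −0.31 and 0.020 as deposited and at −0.0013 and 0.22 under cyclic loess. Median centring shifts all genes of a library alike, and spike-in rescaling nearly so, so only the other scalings could readily alter this order.

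The comparison of Sunitinib with DMSO gave smaller differences. No member was higher and 11 of 46 were lower, where 2.37% of all tested genes were higher and 16.9% lower, so the share of lower members was near that of all genes. The median was −0.12 over the members and −0.095 over all tested genes, and 14 members were lower in every Sunitinib than in every DMSO library, where 29.3% of all tested genes were. The chaperone gene PSMD9 was the only member higher in every Sunitinib than in every DMSO library (5.89% of all tested genes), and it did not pass the test. The calls were spread over the particles: 4 of 14 core genes, 4 of 17 cap genes, 2 of 4 core chaperones (PSMG1 and PSMG4) and the activator PSME3.

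PSMG1 had the largest difference and was the only 1 of the 11 to keep its call in every alternative run (log2 difference −0.47, 95% interval −0.61 to −0.32, adjusted p = 0.00301; values above); the other calls were lost in 3 (PSMD11) to 15 (PSMC4) of the 21 alternatives. PSMG4 (−0.28, adjusted p = 0.0375) and PSMA3 (−0.28, adjusted p = 0.0173) came next. PSMA3 had its Sunitinib libraries between those of MI-389 and DMSO. PSMB2 (−0.22, adjusted p = 0.0475), PSMB5 (−0.22, adjusted p = 0.0334) and PSMD12 (−0.25, adjusted p = 0.0475) were likewise intermediate. PSMA6, whose MI-389 libraries overlapped with DMSO, was lower in Sunitinib (−0.22, adjusted p = 0.0414). Of the cap, the lid subunit PSMD11 had 86.5, 82.6 and 84.2 FPKM in the Sunitinib libraries and 94.9, 101 and 113 FPKM in the DMSO libraries (−0.28, adjusted p = 0.0178), PSMC4 was lower by a margin that just passed (−0.22, adjusted p = 0.0493), and PSMD1 was lower too (−0.22, adjusted p = 0.0341). PSME3 (−0.25, adjusted p = 0.0493) completes the list.

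Among the catalytic subunits other than PSMB5, none passed: PSMB6 was at −0.051 (adjusted p = 0.658), PSMB7 at −0.13 (0.281), PSMB8 at −0.067 (0.524), PSMB9 at −0.16 (0.157) and PSMB10 at 0.053 (0.63). These intervals allowed falls of up to −0.32 (PSMB9) and rises of up to 0.21 (PSMB10). PSMB10 passed as higher under cyclic loess (0.193, adjusted p = 0.00297), quantile normalization (0.179, 0.00576) and median centring (0.139, 0.0451), and PSMB6 under cyclic loess (0.0864, 0.0345) and quantile normalization (0.0758, 0.0326). Without DMSO replicate 1, in contrast, PSMB6 (adjusted p = 0.0107), PSMB7 (0.000736), PSMB8 (0.037) and PSMB9 (0.0166) passed as lower.

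The count of 11 was not stable. It was 35 without DMSO replicate 1, the library that stood low. It was 2 without DMSO replicate 2, and 3 without DMSO replicate 3, MI-389 replicate 1, MI-389 replicate 3 or Sunitinib replicate 1. It was 5 without MI-389 replicate 2 and 1 without Sunitinib replicate 2 or 3. The number of all tested genes called also varied widely across these runs, as given in the closing section. The swing was therefore not shown to be particular to the members. Quantile normalization and cyclic loess each gave 10 members higher and 10 lower, and median centring 3 higher and 8 lower. Over all tested genes quantile normalization gave 1696 higher and 1981 lower, against 291 higher and 2079 lower as deposited.

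Between the treated groups, without the DMSO libraries on either side of the difference, the split of core and cap was again seen. Of the 46 members, 15 were lower and 8 higher in MI-389 than in Sunitinib libraries, against 20.3% and 36.0% of all tested genes. Without overlap between libraries, 20 members were lower and 14 higher, against 27.0% and 42.5% of all tested genes. The median was −0.022 over the members and 0.081 over all tested genes. In the core 9 of 14 were lower and none higher (median −0.27). In the cap 1 of 17 was lower and 5 higher (median 0.13), and of the 6 ATPases 3 were higher and all 6 log2 differences were above zero. The ratio of cap to core sums, without SHFM1, was 0.31 higher on the log2 scale, and 0.24 and 0.22 under quantile normalization and cyclic loess.

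PSMB2 (−0.67, adjusted p = 3.18e-05), PSMB5 (−0.45, adjusted p = 0.00019), PSMD12 (−0.42, adjusted p = 0.00101), PSMB3 (−0.37, adjusted p = 0.00265), PSMA3 (−0.37, adjusted p = 0.000927) and PSMA4 (−0.35, adjusted p = 0.000907) were lower in MI-389. So were PSME1 (−0.40, adjusted p = 0.000486), PSME2 (−0.37, adjusted p = 0.00216), PSMB8 (−0.35, adjusted p = 0.00179), PSMB10 (−0.27, adjusted p = 0.00862) and PSMB7 (−0.24, adjusted p = 0.0233). PSMD10, which has a role in building the base, had 81.2, 76.5 and 74.7 FPKM in the MI-389 libraries and 106, 105 and 99.7 FPKM in the Sunitinib libraries (−0.42, adjusted p = 0.00127). The call of PSMB7 was lost without a filter (adjusted p = 0.0559) and without MI-389 replicate 2 or 3 or any 1 Sunitinib library (0.0543 to 0.0685), and its difference was −0.0721 under cyclic loess and −0.407 under median centring. The calls of the other genes named so far held in every alternative run, though cyclic loess reduced the differences to −0.191 for PSMA3, −0.149 for PSMA4, −0.176 for PSMB3, −0.182 for PSME1, −0.149 for PSME2 and −0.157 for PSMB10. PSMB6 (−0.14, adjusted p = 0.122) and PSMB9 (−0.13, adjusted p = 0.15) did not pass. Both did under median centring (adjusted p = 0.00206 and 0.00102) and quantile normalization (0.00852 and 0.0308), and PSMB6 also with only the 6 libraries compared (0.00389) and without DMSO replicate 1 (0.0024). On the other side stood PSME4 (0.51, adjusted p = 0.000132) and PSMD14 (0.38, adjusted p = 0.000929), followed by PSMC1 (0.33, adjusted p = 0.00206) and PSMC5 (0.32, adjusted p = 0.00296), which lie outside the rule for named genes. Each of these 4 rises passed under every alternative run, though median centring reduced them to 0.163 for PSMC1, 0.155 for PSMC5 and 0.212 for PSMD14, and quantile normalization that of PSME4 to 0.33.

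Median centring, under which the median of all tested genes was −0.084 in place of 0.081, gave 29 members lower and 5 higher. Quantile normalization gave 19 lower and 17 higher, and cyclic loess 17 lower and 19 higher. Without DMSO replicate 1, which enters this contrast through the shared variance, 13 members were higher. The inducible share of the catalytic subunits was 0.51 percentage points lower in MI-389 than in Sunitinib libraries (exact permutation p = 0.4).

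Of 29 other genes of the pathway, a list of assembly factors, proteasome-bound proteins, regulators, shuttles and ubiquitin genes, 28 were tested. Against DMSO, 7 were higher and 8 lower in MI-389 libraries, where 28.5% and 28.3% of all tested genes were, so these shares were near the background. The median log2 difference was −0.027, against −0.0021 over all tested genes. None was higher and 7 were lower in Sunitinib than in DMSO libraries (2.37% and 16.9% of all tested genes), with a median of −0.15 against −0.095. In MI-389 against Sunitinib, 14 were higher and 8 lower (36.0% and 20.3% of all tested genes), with a median of 0.14 against 0.081. The largest of these rises in MI-389 libraries against DMSO were those of ZFAND2A, NFE2L2 and DDI2. ZFAND2A, an arsenite-inducible protein that binds the proteasome, had 28.1, 25.2 and 28.5 FPKM in the MI-389 libraries, 9.24, 11.3 and 7.99 FPKM in the Sunitinib libraries, and 11.02, 9.07 and 11.5 FPKM in the DMSO libraries, 2.59 times the DMSO mean (log2 difference 1.30, 95% interval 1.03 to 1.57, adjusted p = 1.82e-05).

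NFE2L2, the regulator of the antioxidant response, had 93.1, 89.2 and 91.9 FPKM in the MI-389 libraries, 42.8, 40.9 and 45.5 FPKM in the Sunitinib libraries, and 47.4, 50.8 and 55.1 FPKM in the DMSO libraries (log2 difference 0.83, 95% interval 0.69 to 0.97, adjusted p = 6.59e-06). DDI2, the protease that activates NFE2L1, had 10.6, 8.43 and 10.6 FPKM in the MI-389 libraries, 4.30, 3.21 and 4.09 FPKM in the Sunitinib libraries, and 4.996, 6.19 and 6.13 FPKM in the DMSO libraries (log2 difference 0.68, 95% interval 0.41 to 0.96, adjusted p = 0.00109). In all 3 genes MI-389 stood above every other library. NFE2L1 itself overlapped between the groups, with 74.3, 69.8 and 71.8 FPKM in the MI-389 libraries and 69.2, 79.9 and 87.7 FPKM in the DMSO libraries (log2 difference −0.13, 95% interval −0.30 to 0.047, adjusted p = 0.191); median centring, quantile normalization and omission of DMSO replicate 1 each brought it past the test as lower (adjusted p = 0.00338, 0.0388 and 0.00503).

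SHFM1, the small lid subunit also called SEM1 and not named by the PSM rule, had 635, 638 and 664 FPKM in the MI-389 libraries, 1135, 1183 and 1103 FPKM in the Sunitinib libraries, and 1064, 1289 and 1279 FPKM in the DMSO libraries. With a mean 0.533 times that of DMSO (log2 difference −0.90, 95% interval −1.08 to −0.73, adjusted p = 1.23e-05), it was lower in every alternative run, but its difference was −0.562 under cyclic loess and −0.593 under quantile normalization. UBQLN4, a shuttle for ubiquitin-tagged proteins, averaged 37.8 ± 2.79 FPKM in MI-389 and 57.8 ± 6.86 FPKM in DMSO libraries (log2 difference −0.60, 95% interval −0.79 to −0.40, adjusted p = 0.000294). The polyubiquitin gene UBB averaged 1320.5 ± 34.2 FPKM in MI-389 and 1927 ± 208 FPKM in DMSO libraries (log2 difference −0.54, 95% interval −0.72 to −0.36, adjusted p = 0.000314); cyclic loess reduced that difference to −0.168 and quantile normalization to −0.141. POMP, a maturation factor of the core, had 223, 229 and 228 FPKM in the MI-389 libraries, 251, 250.5 and 243 FPKM in the Sunitinib libraries, and 268, 278 and 287 FPKM in the DMSO libraries, lower in both treated groups (−0.29, adjusted p = 0.000554 for MI-389 and −0.16, adjusted p = 0.0394 for Sunitinib). Neither call of POMP held under cyclic loess (−0.040, adjusted p = 0.461, and −0.021, adjusted p = 0.767) or quantile normalization (adjusted p = 0.164 and 0.581), and that for Sunitinib was lost in 15 of 21 alternatives, among them the omission of any 1 library other than DMSO replicate 1 (0.0603 to 0.14).

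In Sunitinib against DMSO the deubiquitinase UCHL5 (−0.42, adjusted p = 0.00305) kept its call in every alternative run. DDI2 (−0.48, adjusted p = 0.0256), RAD23B (−0.27, adjusted p = 0.022), UBE3C (−0.24, adjusted p = 0.0218), NFE2L2 (−0.24, adjusted p = 0.029) and UFD1L (−0.24, adjusted p = 0.0191) were also lower. Their calls were lost in 6, 7, 4, 7 and 7 of the 21 alternatives, in the same order. Among these runs was the omission of Sunitinib replicate 2, where all 5 calls were lost and adjusted p ran from 0.0503 to 0.115. NFE2L1 did not pass (−0.16, adjusted p = 0.172). Between the treated groups, MI-389 was higher for ZFAND2A (1.44, adjusted p = 9.97e-06), DDI2 (1.16, adjusted p = 3.99e-05), NFE2L2 (1.07, adjusted p = 1.59e-06), and AKIRIN2, which carries proteasomes into the nucleus (0.62, adjusted p = 4.43e-05). It was lower for SHFM1 (−0.82, adjusted p = 2.05e-05) and POMP (−0.13, adjusted p = 0.0384), and NFE2L1 did not pass (0.035, adjusted p = 0.718). The POMP call was lost in 13 of 21 alternatives, among them cyclic loess (−0.019, adjusted p = 0.727), quantile normalization (0.456), the replicate block (0.0888), robust variance (0.128), spike-in rescaling (0.0517) and the omission of DMSO replicate 2 (0.0585) or of any 1 treated library (0.0615 to 0.118).

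**Figure D5:**
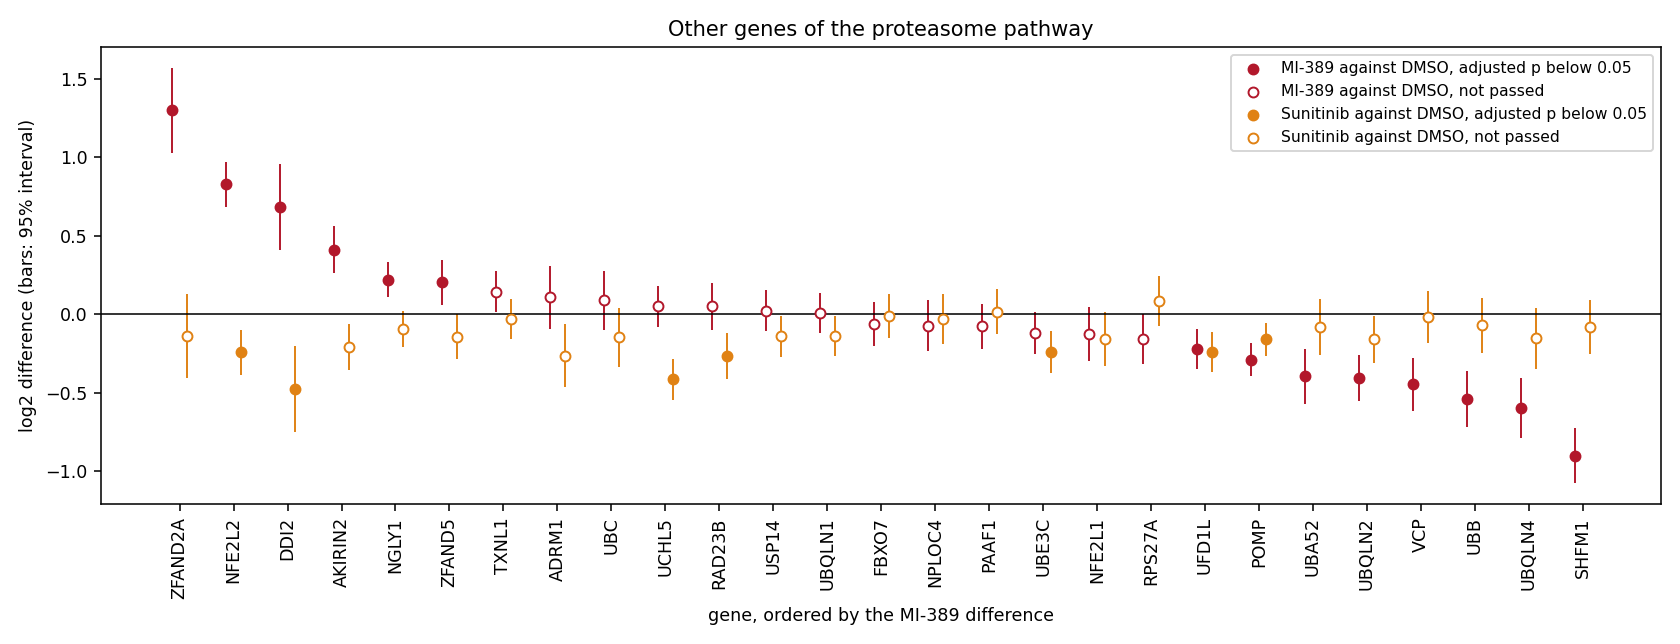
Log2 difference, compound minus DMSO, with 95% intervals from limma, of tested pathway genes outside the PSM family, for MI-389 (red) and Sunitinib (orange); filled points passed an adjusted p below 0.05. ZFAND2A, NFE2L2 and DDI2 stand at 1.30, 0.83 and 0.68 in MI-389 libraries, and SHFM1 at −0.90.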

How the data were processed

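The members and the gene lists were chosen with earlier results of these data known. RNA of MOLT4 cells received ERCC spike-in RNA by cell number and became polyA libraries by a SMARTer v4 low-input protocol, per the labels' protocols. The submitters' processing notes list HISAT, Cufflinks 2.0.0 and hg19. Annotation and between-library normalization: not given in the sources used here. Values are FPKM as deposited by the authors, in a table of 1 column per library and 23713 rows, of which 92 are spike-in RNAs. Division by library size means that a few very abundant rows can shift all others. The summed FPKM of each library was 50.6% to 63.7% MIR1244 rows. Because FPKM also divides by transcript length, this is not their share of fragments. How far these rows shifted the others was not tested. Undetected genes stand near 0.1 FPKM in place of 0.

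Groups follow the library titles. Testing was on log2(FPKM + 1), for genes averaging 1 FPKM or more, by limma 3.58.1 (R 4.3.3), all 9 libraries in a single model with a variance trend, two-sided, and Benjamini-Hochberg adjustment over 12301 genes. This scale understates changes of low genes. The method was tested on simulated data. Depth is unknown, so no counting intervals are given; relative depth came from 82 low genes for MI-389 and 108 for Sunitinib. Shares were compared with exact permutation tests. Folds are ratios of mean FPKM.

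Named genes were, per comparison, the 12 called members with the largest absolute log2 difference, the catalytic subunits PSMB5 to PSMB10, the 6 called pathway genes with the largest difference, and NFE2L1, POMP and DDI2; the values of 1 pathway gene are not reported here. Promoters came from RefSeq (GRCh38.p14), with an entry for 42 of 48 members. PSMA7, PSMB1, PSMB6, PSMB7, PSMD4 and PSMG3 had none. The alternatives changed the pseudocount (0.1 or 5), the filter (none, or 5 FPKM), the scaling (4 others), the libraries fitted (the 6 compared, or all but 1), the variance model (no trend, or robust), or added a replicate block.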

Additional observations from a re-analysis of the deposited data

How the results depend on the processing

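Most results for MI-389 against DMSO kept their direction and call: of the values of named genes under the alternatives, 517 stayed as they were, 44 lost the call, 3 gained it and 3 turned round; the numbers were 412, 153, 11 and 12 for Sunitinib against DMSO and 518, 19, 6 and 3 for MI-389 against Sunitinib. The cause of each change was not tested. For MI-389 against DMSO, the 4 members called higher became 18 under cyclic loess, 14 under quantile normalization, and 2 without a filter or with only the 6 libraries compared; the 25 called lower became 14 under cyclic loess; and the median became 0.0434 under cyclic loess and 0.00295 under quantile normalization. With 1 library left out, 1 to 5 members were higher (1 without MI-389 replicate 1 or 3, 2 without DMSO replicate 2), 18 to 33 were lower, and 6007 to 7250 genes were called. For Sunitinib against DMSO, the 2370 genes called became 3814 under cyclic loess, 3677 under quantile normalization, 1423 without a filter and 1225 with only the 6 libraries compared. Members called higher became 10 under cyclic loess, 10 under quantile normalization and 3 under median centring; members called lower became 3 without a filter, 6 without a variance trend and 1 with only the 6 libraries compared; the median became 0.0143 under cyclic loess, 0.0151 under quantile normalization and −0.0336 under median centring. With 1 library left out, 929 to 4244 genes were called and 1 to 35 members were lower. For MI-389 against Sunitinib, members called higher became 19 under cyclic loess, 17 under quantile normalization, 5 under median centring and 14 with only the 6 libraries compared, members called lower became 29 under median centring, and the median became −0.187 under median centring; with 1 library left out, 6 to 13 were higher and 13 to 18 lower. The inducible share of catalytic FPKM turned round for MI-389 against Sunitinib when only PSMB8 and PSMB5 were used (1.55 percentage points higher, exact permutation p = 0.1). The log2 ratio of cap to core sums for Sunitinib against DMSO was −0.026, and −0.017 and −0.011 under quantile normalization and cyclic loess. Values of single genes that turned round were, for MI-389 against DMSO, PSMB6 under cyclic loess (0.0842) and PSMB10 under cyclic loess (0.0361) and quantile normalization (0.00193). For Sunitinib against DMSO they were PSMB6 under cyclic loess (0.0864), median centring (0.0351), quantile normalization (0.0758) and without DMSO replicate 2 (0.00132), PSMB7 under cyclic loess (0.00402), PSMB8 under cyclic loess (0.0726), median centring (0.0189) and quantile normalization (0.0509), PSMC1 under cyclic loess (0.0291) and quantile normalization (0.0189), PSMC5 under quantile normalization (0.0165), and PSMB10 without DMSO replicate 1 (−0.0139); with 1 library left out PSMB6 ran from −0.141 to 0.00132 and PSMB10 from −0.0139 to 0.115. For MI-389 against Sunitinib, NFE2L1 turned round under cyclic loess (−0.0228), median centring (−0.13) and quantile normalization (−0.0397). Depth is unknown from FPKM values, so the limit it sets on small differences could not be given.

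The libraries share replicate numbers in their titles. Deviations of same-numbered libraries had correlations of −0.042 to 0.11 over tested genes, and those of differently numbered libraries −0.22 to 0.13. These ranges overlap, so the correlations cannot decide whether a number marks a shared culture or batch, which the labels do not state. With the replicate block the members called against DMSO were 2 higher and 20 lower for MI-389 and 3 lower for Sunitinib, and between the treated groups 7 higher and 14 lower.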
